A study of Saccharomyces cerevisiae with 75 samples.

Results

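The npl3 deletion strain of budding yeast was compared with its matched wild type after both had spent 30 min at 16 C. The comparison was defined by the sample titles and holds 2 of the 75 arrays of the series. Both arrays carried the same pair of RNA extracts with the dyes exchanged, so they are technical repeats of 1 extract pair and there was no second culture at 16 C. Total RNA was extracted with acid phenol, copied into cDNA with aminoallyl dUTP, coupled to Cy5 or Cy3 and hybridised to 2-colour arrays designed to read splicing. The other arrays paired single and double deletions of NPL3, GBP2, HRB1 and UPF1 (listed here by its standard name NAM7) at 30 C or after 15, 30 or 45 min at 37 C, or splicing mutants. Among them, 7 extract pairs (14 arrays) compared the npl3 deletion with wild type at 30 C without a shift, and 6 pairs (11 arrays) after 30 min at 37 C. The labels do not say how the deletion was made, whether the strain was a single clone, or which medium was used.

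Npl3 is an RNA-binding protein with an arginine- and serine-rich domain related to the SR proteins of animals, and it travels with mRNA from transcription to export. SR proteins are known to help the U1 small nuclear ribonucleoprotein to recognise introns. Few yeast genes have an intron, but those that do include many genes of ribosomal proteins, which are transcribed at a high rate. Cold is a classic way to expose weak steps of RNA folding and of ribosome and spliceosome assembly, and growth of yeast slows strongly in it.

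Each probe was printed in 6 spots, and the array held 1536 probes, of which 1457 could be matched to 982 genes. For 230 genes the print held 3 probes in a fixed order, 2 in neighbouring wells and the third in a later series of wells. The probe contrast of a gene is the log2 ratio at its second probe less that at the third. A positive contrast means that the second probe gave a higher ratio of deletion over wild type than the third. The sources used here do not state which part of a gene (exon, intron or junction) a probe matches, so a contrast away from 0 says that 2 probes to the same gene moved by different amounts and no more. Values are log2 of deletion over wild type.

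The array with the deletion strain in Cy5 lacked a value at 17.22% of its spots and the array with the deletion strain in Cy3 at 0.43%, against 0.18% to 35.38% over all arrays. The median SD between spots of a probe was 0.186 on the Cy5 array and 0.143 on the Cy3 array. Across the 1356 probes with at least 4 of 6 spots on both arrays, the arrays correlated with r = 0.67, and across the 149 genes for which the second and the third probe both met that minimum, the contrasts correlated with r = 0.67. These are descriptions across probes and genes of 1 extract pair. All 81 genes short of spots fell short on the Cy5 array, 64 of them in the third probe. With 1 extract pair at 16 C, the linear model took its error from other extract pairs. Of those 36, a pair that was alone in its group and shared no strain and condition with another added nothing to that error. A p-value at 16 C assumes that an extract pair at 16 C varies as the contributing pairs do.

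The probe of the deleted gene, whose sign set the direction of the ratios, read below 0 on both arrays. The NPL3 probe read -1.49 ± 0.37 (SD over 6 spots) with the deletion in Cy5 and -2.01 ± 0.19 with it in Cy3, a mean of -1.75. At 16 C it lay inside the range of the 30 C pairs other than replicate 3 and of the 37 C pairs. Of the 7 pairs at 30 C, 6 read -2.19 to -1.68, and the 6 pairs at 37 C read -2.19 to -1.59. The library labelled replicate 3 at 30 C read 1.47, which goes against its label. Across 1356 probes that library ran against the 16 C pair (r = -0.57). It stayed in the main fits, whose error therefore includes it. Counts of calls are given with and without it, as are some fitted values. The direction of the ratios was set from the sign of this probe at 16 C. A value below 0 there was thus fixed in advance, and is neither a result nor a check of those labels. Only its size and the likeness of both arrays were free. For the other pairs its sign is a check of the labels.

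The genes of the related proteins stayed close to wild type. GBP2, which encodes an SR-like mRNA-binding protein, read 0.35 on the Cy5 array and 0.22 on the Cy3 array. HRB1, the gene of its paralog, read -0.03 and -0.17. NAM7, which encodes the Upf1 helicase of nonsense-mediated decay, read 0.05 and 0.32. None of them passed the test. The NPL3 probe did not pass it in the same fit either, so the test does not show that these genes were unchanged. The labels give no mating type, and the 5 measured mating pheromone and receptor genes used as markers (MFA1, MFA2, MF(ALPHA)1, MF(ALPHA)2 and STE3) lay between -0.17 and 0.10.

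Second probes of genes with 3 ordered probes made up most of what was high at 16 C. At least 1.5-fold higher on both arrays were 23 of the 1356 probes (1.7%), and at least 1.5-fold lower on both were 4 (0.295%). By position, 15 second probes passed that fold (7.32% of those that met the minimum), as did 2 first probes (0.877%) and 0 probes printed last of the 3. The others were 4 of the 681 probes that were the only probe of a gene and 2 probes with no gene name. The limma test called 0 of 1536 probes (0%) after adjustment, with 22 at an unadjusted p below 0.05. Without the 30 C pair that goes against its label it called 4, with 52 at an unadjusted p below 0.05, namely the NPL3 probe, whose sign set the direction, the second probes of ACT1 and RPS14B, and a probe with no gene name.

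The highest named probe was the second probe of EFB1, the gene of the exchange factor that reloads translation elongation factor 1A with GTP. It read 1.84 ± 0.21 (SD over 4 spots) on the Cy5 array and 1.86 ± 0.24 (6 spots) on the Cy3 array. Its adjusted p was 0.311, or 0.0845 without that 30 C pair. The second probe of RPS14B, which encodes a small-subunit protein known to bind its own pre-mRNA and hold back its splicing, read 1.54 and 1.48. The first probe of the same gene was high as well, at 1.27 and 0.83.

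The next named probes also had enough spots on both arrays and were second probes unless stated. RPL18B read 1.00 and 1.04, ACT1 0.86 and 1.20, and RPS9A 1.00 and 1.03. RPS27B read 1.16 and 0.81, GLC7 0.90 and 1.03, and RPS24A 1.07 and 0.83. PRB1, the only one of this group with a single probe, encodes vacuolar protease B and read 1.02 and 0.97. The other single-probe genes past the fold were PTA1 (0.75 and 0.79), which encodes a subunit of the pre-mRNA cleavage and polyadenylation factor, USE1 (0.71 and 0.81), a SNARE of the endoplasmic reticulum, and MAL33 (0.59 and 0.68), an activator of maltose genes.

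On the low side NPL3 stood alone at that size. The next were the third probe of IMD4 (-0.92 and -0.996), the second of 2 probes of RPL26B (-0.72 and -0.68) and the third probe of MPT5 (-0.61 and -0.67). IMD4 encodes an IMP dehydrogenase of guanine nucleotide synthesis, and MPT5 a Puf protein that binds mRNA. Below 0 on both arrays but short of the fold on at least 1 of them were CLN2, a G1 cyclin (-0.57 and -0.67), the transcription factors GAT1 (-0.64 and -0.49) and PHD1 (-0.51 and -0.59), the first and the third probe of RPS11B (means of -0.54 each) and the first probe of IMD4 (-0.53 and -0.54).

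Within genes, the second probe stood above the third far more often than below it. Of the 149 genes with enough spots, the contrast was above 0 on both arrays in 105 and below 0 on both in 7, and the arrays disagreed in sign in 37. It reached 1.5-fold on both arrays in 22 genes (14.8%) and fell to that size in none (0%). With at least 3 spots, a minimum chosen after seeing the data, it did so in 31 genes, of which 24 encode ribosomal proteins. The median over all 230 genes was 0.28 on the log2 scale. The scatter of the contrasts on both arrays shows this lean to positive values and the few genes that lie far out on both.

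**Figure D1:**
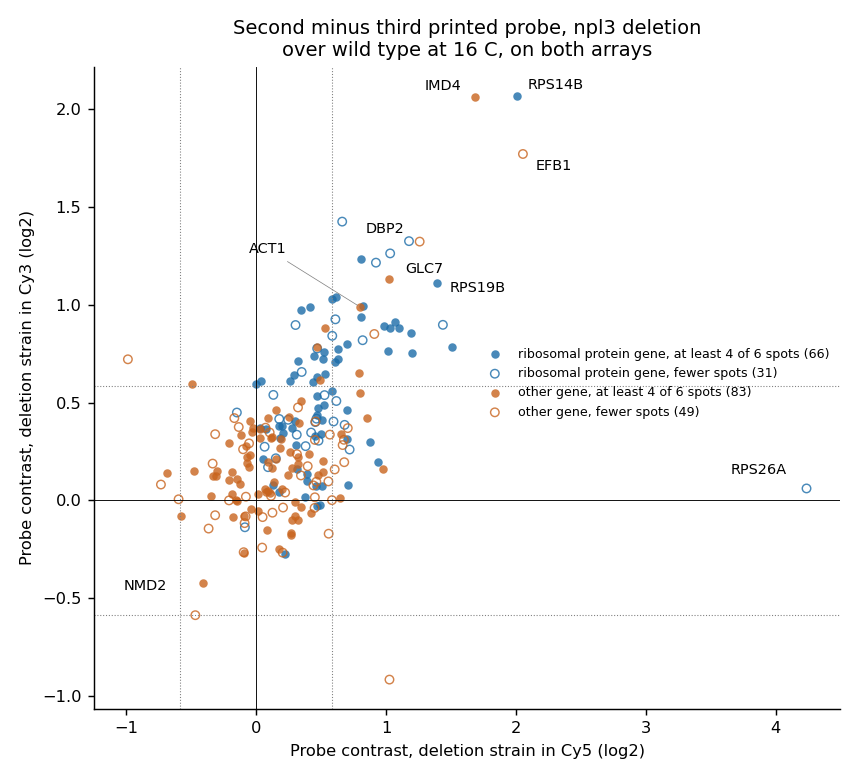
Probe contrast (the second minus the third printed probe, log2 of the npl3 deletion over wild type at 16 C) of each gene on the array with the deletion strain in Cy5 (horizontal) and in Cy3 (vertical); filled points have at least 4 of 6 spots behind both probes on both arrays, open points fewer, and dotted lines mark 1.5-fold. RPS14B, IMD4 and EFB1 lie high on both arrays, whereas RPS26A lies at 4.24 on the Cy5 array and 0.06 on the Cy3 array.

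The contrast arose from both ends. Over the 149 genes the median was -0.06 for the first probe, 0.14 for the second and -0.10 for the third. The second probe was above 0 and the third below 0 on both arrays in 53 genes. Among the 66 ribosomal protein genes the medians were -0.11, 0.33 and -0.18 in the same order, and 40 showed that pattern. Among the 83 other genes the medians were -0.03, 0.03 and -0.07, and 13 did.

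Ribosomal protein genes had the larger contrasts as a group. Their median was 0.51, and 63 of 66 were above 0 on both arrays and none below 0 on both. The 83 other genes had a median of 0.13, with 42 above 0 on both arrays and 7 below. The fold was passed by 18 ribosomal protein genes and 4 others, which were IMD4, GLC7, ACT1 and ERV41. Of the ribosomal genes, all 27 of the small subunit were above 0 on both arrays (median 0.59, range 0.11 to 2.04), as were 36 of 38 of the large subunit (median 0.46, range -0.03 to 1.02). No test was made between these groups.

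The highest contrast with enough spots was that of RPS14B, at 2.01 on the Cy5 array and 2.07 on the Cy3 array. For this gene the third probe read -0.47 and -0.58, so the second and the third probe of the gene lay on opposite sides of wild type. The fitted contrast was 2.04 ± 1.21 (SE) with an adjusted p of 0.854, and without the 30 C pair that goes against its label the adjusted p was 0.0152. IMD4 followed with 1.68 and 2.07. Its second probe read 0.76 and 1.07 and the third -0.92 and -0.996, and the fitted contrast was 1.87 ± 0.56 (SE) with an adjusted p of 0.187. Without that 30 C pair it passed the test (adjusted p = 0.00832).

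EFB1 had a contrast of the same size, 2.05 on the Cy5 array and 1.77 on the Cy3 array. In EFB1 the third probe kept only 3 of 6 spots on the Cy5 array (-0.21 ± 0.37) and all 6 on the other (0.09 ± 0.28), so it missed the minimum by 1 spot. The fitted contrast was 1.91 ± 0.53 (SE), with an adjusted p of 0.162 from all pairs and 0.0118 without the 30 C pair that goes against its label.

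The next contrasts were smaller and mostly those of ribosomal protein genes. RPS19B read 1.39 on the Cy5 array and 1.11 on the Cy3 array, with the third probe at -0.36 and -0.37. RPS0A read 1.505 and 0.79, a wider gap between the arrays. RPS27B, RPL13B, RPS7B, RPL36A, RPS11B, RPS24B and RPL32 had means of 0.94 to 1.02 and passed 1.5-fold on both arrays. These are proteins of both ribosomal subunits.

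GLC7, which encodes the catalytic subunit of protein phosphatase 1, had a contrast of 1.02 on the Cy5 array and 1.13 on the Cy3 array. Its first probe (0.02 and 0.27) and the third (-0.13 and -0.10) were close to wild type and its second (0.90 and 1.03) was not. Actin behaved alike in form: ACT1 read 0.13 and 0.27 at its first probe, 0.86 and 1.20 at its second and 0.06 and 0.21 at the third. The contrast of ACT1 was 0.80 and 0.99. Neither contrast passed the test (adjusted p = 0.854 for both). DBP2, the gene of a DEAD-box RNA helicase known to control its own mRNA through its intron, had 1.26 and 1.32, with 3 of 6 spots behind the third probe on the Cy5 array. The panels of the printed probes show that in GLC7 and ACT1 the second probe is the one that stands apart. In DBP2 the second probe (0.79 and 0.79) made only part of the contrast, and the third lay below 0. For RPS14B, drawn there too, the first probe was high as well and the third low.

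**Figure D2:**
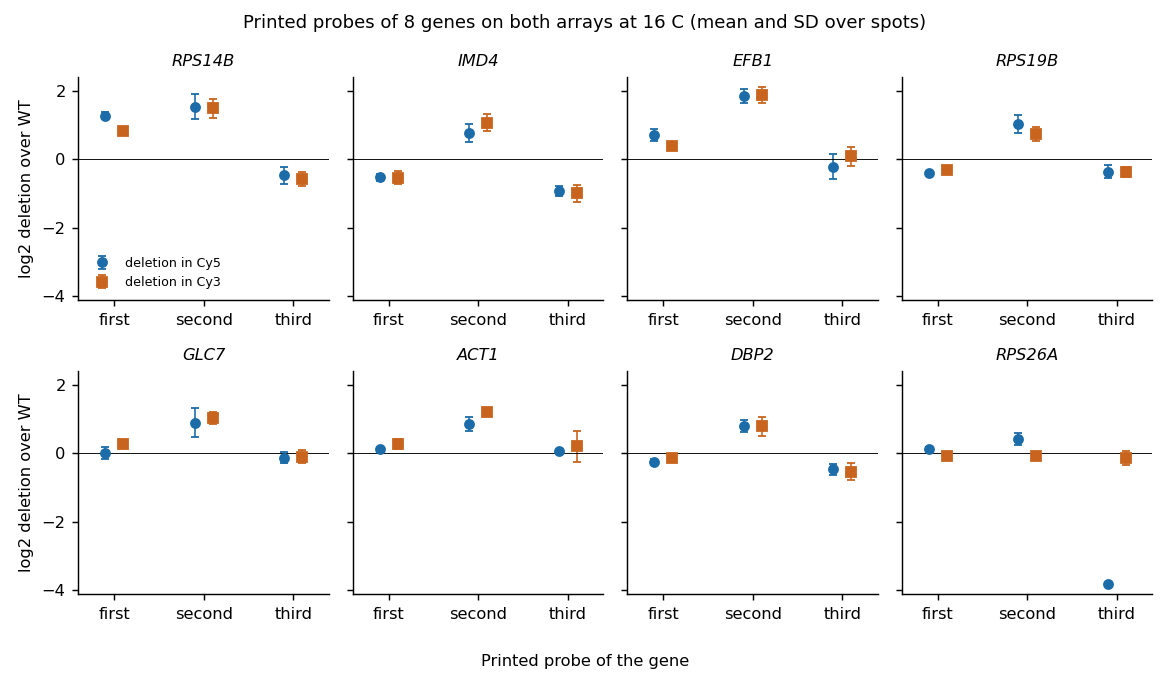
Log2 ratio of the npl3 deletion over wild type at 16 C for the first, the second and the third printed probe of 8 genes, as mean and SD over up to 6 spots, with the deletion strain in Cy5 (circles) or Cy3 (squares). The second probe is the highest of the 3 on both arrays in every gene drawn except RPS26A, where the third probe on the Cy5 array is a single spot at -3.82.

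The limma test called 1 of 230 contrasts (0.435%), that of RPS26A, a small-subunit protein gene, and it rests on 1 spot. Unadjusted p-values were below 0.05 for 8 contrasts, and for 34 without the 30 C pair that goes against its label, when 4 were called. The third probe of RPS26A kept 1 of 6 spots on the Cy5 array, and that spot read -3.82. On the Cy3 array 5 spots of the same probe read -0.14 ± 0.20. The contrast was therefore 4.24 on the Cy5 array and 0.06 on the Cy3 array, and the fitted mean of 2.15 (adjusted p = 0.0439) lies between 2 arrays that do not agree. With at least 4 spots required behind each probe, 0 of 149 contrasts were called and 4 had an unadjusted p below 0.05. That minimum in the fit was chosen after the values had been seen. With the same minimum and without the 30 C pair that goes against its label, 2 were called, IMD4 (adjusted p = 0.00539) and RPS14B (adjusted p = 0.0197).

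Contrasts below 0 were few and small. NMD2, which encodes the Upf2 factor of nonsense-mediated decay, had the lowest with enough spots, -0.41 and -0.42. VPS29, of the retromer that sorts endosomal cargo, read -0.57 and -0.08, and KEI1, of the Golgi enzyme that makes inositolphosphorylceramide, -0.09 and -0.27. CIN2, COX4, TMH18 and RUB1 had means of -0.13 to -0.04. ASC1, the gene of a ribosome-associated scaffold protein, came next at 0.02. None passed the test.

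Contrasts of genes with textbook introns ranged widely at 16 C. Of 21 genes of the list 19 were measured with 3 ordered probes, and none was called. Of the 12 with enough spots 11 had a contrast above 0 on both arrays and 5 passed the fold, namely ACT1, GLC7, RPS14B, RPS17A (0.61 and 0.71) and RPS17B (1.01 and 0.76). Over all 149 genes with enough spots, 105 were above 0 on both arrays and 22 (14.8%) passed the fold. Among the ribosomal protein genes, to which some of the 12 belong, these counts were 63 and 18 of 66. No test was made. RPL22A read 0.48 and 0.47, and TUB1, of alpha-tubulin, 0.19 and 0.31. RPL22B (0.18 and 0.32), DYN2 of dynein light chain (0.52 and 0.14), RPL28 (0.07 and 0.37) and SAR1 of a vesicle coat GTPase (0.11 and 0.32) were above 0 on both arrays too. UBC12, a conjugating enzyme for the ubiquitin-like Rub1, read 0.27 and -0.17.

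The other 7 of the list had fewer spots on the Cy5 array. RPS9A (0.92 and 1.22) and DBP2 were the high ones. YRA1, an mRNA export adaptor known to control its own splicing, read 0.57 and 0.34, and RPS9B read 0.15 and 0.21. RPL30, known for a protein that blocks splicing of its own transcript, read -0.15 and 0.45. UBC4, a ubiquitin-conjugating enzyme, read -0.10 and -0.27, and COF1, of the actin-severing protein cofilin, -0.60 and 0.00. The genes of meiosis, which are little expressed in vegetative cells, had a median contrast of 0.01 over 10 measured genes. Of the 6 with enough spots 1 was above 0 on both arrays, beside 42 of the 83 genes that do not encode ribosomal proteins, with no test made.

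Duplicated ribosomal protein genes were set against each other within pairs, with no test made. Of 43 pairs measured with 3 ordered probes each, 36 had at least 3 spots behind all probes, and in 26 of these the same gene had the higher contrast on both arrays. The gap reached 1.5-fold on both arrays in 6 pairs. RPS14B exceeded RPS14A (mean 0.30) by 2.01 on the Cy5 array and 1.47 on the Cy3 array, and RPS19B exceeded RPS19A (0.26) by 1.00 and 0.98. RPL43A (0.91) exceeded RPL43B (-0.03) by 0.60 and 1.27. RPS9A exceeded RPS9B by 0.77 and 1.00, RPS18B (1.04) exceeded RPS18A (0.17) by 0.60 and 1.15, and RPS8B (0.59) exceeded RPS8A (-0.11) by 0.62 and 0.78. Paralogs share most of their coding sequence, so probes to shared stretches may read both genes, and the probe sequences were not used here.

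**Figure D3:**
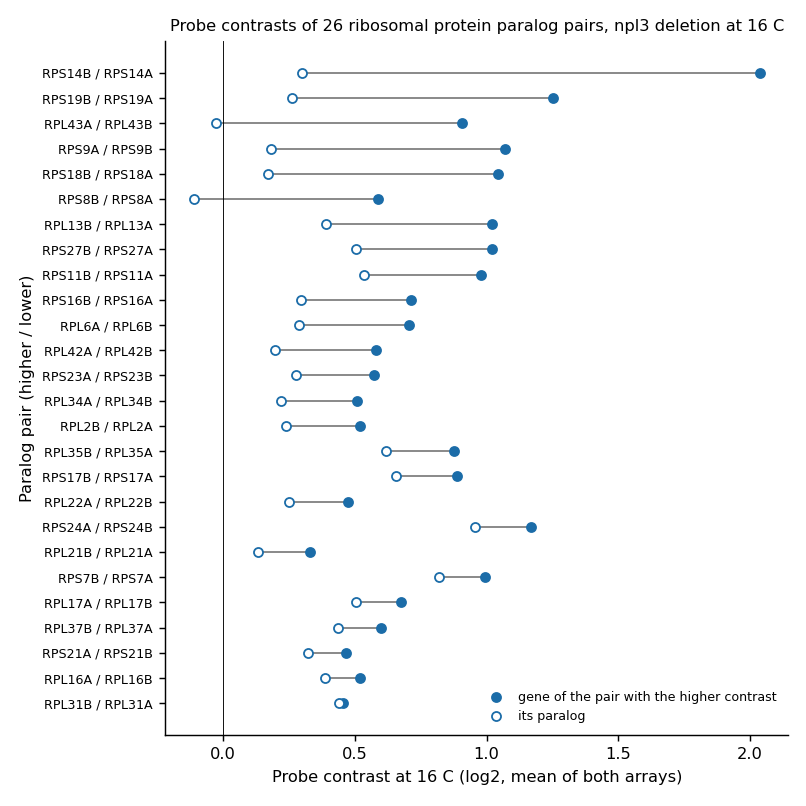
Probe contrast at 16 C (log2, mean of both arrays) of the 26 ribosomal protein paralog pairs that had at least 3 spots behind each probe and the same order on both arrays; filled points are the gene with the higher contrast, open points its paralog. The pair of RPS14B and RPS14A is the widest, from 2.04 to 0.30.

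Of the 26 pairs with the same order on both arrays, 19 also had it in most of the 30 C pairs other than replicate 3 and in most of the 37 C pairs. The other order held in most of both for 4, whose higher gene at 16 C was RPL42A, RPS21A, RPL31B or RPL6A, and 3 had neither. RPS14B was above RPS14A in 6 of the 7 pairs at 30 C and in 5 of 6 at 37 C, and RPS19B above RPS19A in 6 of 7 and 6 of 6. In both cases the 30 C pairs other than replicate 3 all had that order (6 of 6). The 37 C pair that bears the same title batch as the 16 C pair read -0.41 for RPS14B minus RPS14A, against 2.81 in the 30 C pair of that batch.

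Levels of whole genes moved little. With no minimum of spots, the mean over all probes of a gene was at least 1.5-fold higher on both arrays for 5 of 982 genes (0.509%). These were EFB1, PRB1, PTA1, USE1 and MAL33. It was lower for 1 (0.102%), NPL3, whose sign set the direction. The limma test called 0 of 982 (0%), with 11 at an unadjusted p below 0.05. Without the 30 C pair that goes against its label it called NPL3 alone, with 15 at an unadjusted p below 0.05. In bulk RNA of this kind, fewer cells with a transcript and less of it per cell cannot be told apart. The median gene mean was -0.01.

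Genes of the splicing machinery had gene means near wild type. Of all 982 genes only 5 passed the fold upwards (0.509%) and 1 downwards (0.102%), so a short list without any says little. Of 16 genes of the U1 particle and of the first complex on the intron, 0 passed the fold. Their median was -0.05, beside -0.01 over all genes. The lowest was SNP1, of the U1-70K protein (-0.37 and -0.23), and the highest MSL5, of the branch point binding protein (0.22 and 0.17). The 69 measured genes of later steps had a median of -0.03, from SMD1, a core Sm protein (-0.34 and -0.25), to PRP45 (0.42 and 0.52).

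Genes of mRNA export and packaging (26 measured, median -0.01) ran from HRP1, a cleavage factor subunit (-0.49 and -0.43), to PUB1, an RNA-binding protein (0.26 and 0.31). Those of RNA decay (28 measured, median 0.00) ran from the exosome gene RRP45 (-0.47 and -0.40) to CCR4, the main deadenylase (0.53 and 0.58). RNA helicases as a group (33 measured) had a median of -0.02, between DHH1 (-0.24 and -0.31) and SPB4 (0.29 and 0.23), and ribosome biogenesis genes (30 measured) one of 0.03, between DBP8 (-0.20 and -0.26) and SPB4. None of these genes passed the fold on both arrays, beside 5 higher (0.509%) and 1 lower (0.102%) of all 982 genes.

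Over all 982 genes, 5 passed the fold upwards (0.509%) and 1 downwards (0.102%). The array held 7 genes of the cold response list, and none of these passed it. GPD1, of glycerol synthesis, was lowest at -0.30 and -0.58, and GAC1, which directs protein phosphatase 1 to glycogen, was highest at 0.31 and 0.41. NSR1, the nucleolin-like protein known for its induction by cold, read 0.11 and 0.19. Because each array compared the strains at the same temperature, these values show the strain difference at 16 C and not the response of either strain to cold. Chaperone genes (11 measured, median 0.03) ran from SIS1 (-0.34 and -0.29) to SSA2 (0.11 and 0.35). The heat-inducible SSA4 read -0.37 and -0.09 at 16 C, against 1.53 in the 37 C pair of the same title batch.

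Smaller lists gave single genes. In amino acid control GCN4, the activator of amino acid synthesis, read -0.35 and -0.66 and HIS4 0.09 and -0.19, with 3 genes measured. Of 2 histone genes HTA1 read -0.52 and -0.40 and HHO1 -0.05 and -0.11. Of 8 mating genes FUS3, a MAP kinase of the pheromone pathway, was highest (0.38 and 0.50) and STE3 lowest (-0.23 and -0.11). Glycolysis and respiration (6 measured) spanned TDH1 (-0.46 and -0.31) to PGK1 (-0.05 and 0.13), and ubiquitin and proteasome genes (11 measured) RPS31 (-0.34 and -0.22) to UBC5 (0.24 and 0.10). Of the 2 general stress genes, GPD1 was the lower and ALD3 read -0.06 and 0.12. Translation factors (8 measured) ran from TIF1 (-0.06 and -0.27) to EFB1, and cytoskeleton and trafficking genes (22 measured) from TUB1 (-0.27 and -0.18 over its probes) to USE1.

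Ribosomal protein genes had contrasts at 16 C nearer in size to those at 30 C than to those at 37 C, with no test made over genes. The labels place 3 extract pairs, at 16, 30 and 37 C, in one title batch, since their titles open with the same number. Over the 66 ribosomal protein genes the median contrast was 0.51 at 16 C, 0.53 at 30 C and 0.88 after 30 min at 37 C. The 16 C value was above the 30 C value in 32 of 66 genes and above the 37 C value in 14 of 66. Over the 83 other genes the medians were 0.13, 0.07 and 0.13. Over all batches the ribosomal medians of the group means were 0.65 at 30 C without replicate 3 and 0.79 at 37 C. Across the 149 genes the contrasts at 16 C correlated with r = 0.81 with the 30 C pair of that batch and 0.63 with its 37 C pair. With pairs of other batches r was 0.58 to 0.71 at 30 C without replicate 3 and 0.47 to 0.71 at 37 C, so these ranges overlapped. These are descriptions over genes that share an array design and, for the first values, a title batch.

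**Figure D4:**
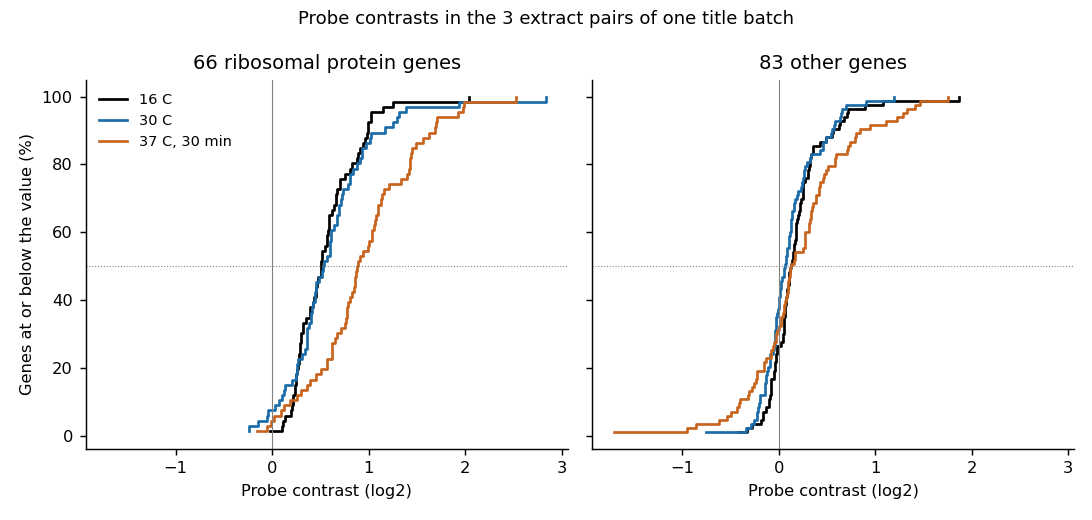
Cumulative share of genes (%) at or below each probe contrast (log2) in the 3 extract pairs of one title batch, at 16 C (black), 30 C (blue) and after 30 min at 37 C (orange), for 66 ribosomal protein genes (left) and 83 other genes (right) with at least 4 of 6 spots behind each probe on both 16 C arrays. In the ribosomal panel the 16 and 30 C curves cross near their medians of 0.51 and 0.53, and the 37 C curve lies to the right with a median of 0.88.

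No difference between temperatures passed the test. For 16 C minus 30 C limma called 0 of 1536 probes (0%) and 0 of 230 contrasts (0%), with 7 and 3 at an unadjusted p below 0.05, and 15 and 7 without the 30 C pair that goes against its label. For 16 C minus 37 C it called 0 of 1536 (0%) and 0 of 230 (0%), with 14 and 2 below 0.05, and 32 and 11 without that pair. With title batch as a block, 19 and 3 were below 0.05 from 30 C and 55 and 3 from 37 C. The median difference of the contrast was 0.05 from 30 C, or -0.04 without that pair, and -0.15 from 37 C.

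IMD4 and ARP9, 2 genes with enough spots, had a contrast at 16 C above that of every 30 C pair and every pair after 30 min at 37 C (1.34% of 149), and CNB1 lay below all of them (0.671%). Set against every pair but replicate 3 at 30 C, a choice made after seeing the data, 4 genes lay above (2.68%), with RPL2A and RRT8 added, and 15 below (10.1%). Of these 15, 12 encode ribosomal proteins, beside 66 of the 149, and the others were CNB1, KEI1 and SFT1. IMD4 stood at 1.87, against 0.24 to 1.20 in the 30 C pairs other than replicate 3 and 0.18 to 1.80 at 37 C. On the Cy5 array alone it read 1.68, below the highest 37 C pair. The fitted difference from 30 C was 1.24 ± 0.59 (SE, adjusted p = 1), or 0.95 ± 0.41 (adjusted p = 1) without replicate 3, and from 37 C 0.84 ± 0.60 (adjusted p = 0.987). In the title batch IMD4 read 1.20 at 30 C and 1.47 at 37 C. ARP9, of an actin-related subunit of chromatin remodellers, stood at 0.70, against at most 0.62 at 30 C and 0.42 at 37 C. CNB1, of the calcineurin regulatory subunit, stood at -0.16, but its 2 arrays at 16 C differed in sign (-0.48 and 0.15).

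EFB1, with its 3 spots, also lay above every pair with a value at 30 C and after 30 min at 37 C. Replicate 6 at 37 C had no value for it. Its 1.91 compared with 0.36 to 1.44 in the 30 C pairs other than replicate 3 and 0.14 to 1.08 at 37 C, and the fitted differences were 1.33 ± 0.57 from 30 C (SE, adjusted p = 1), or 1.13 ± 0.47 without replicate 3 (adjusted p = 1), and 1.43 ± 0.58 from 37 C (adjusted p = 0.987). ACT1 exceeded all 30 C pairs (0.90 against at most 0.59) but not all 37 C pairs (highest 1.57). In the title batch ACT1 read 0.01 at 30 C and -0.41 at 37 C. MPT5 (0.88) and DBP2 (1.29), each with 3 spots behind 1 of its probes on the Cy5 array, also exceeded all 30 C pairs, whose highest values were 0.63 each, and not the highest 37 C values of 1.19 and 2.52.

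Among ribosomal protein genes with large contrasts, RPS19B, at 1.254, was below all 30 C pairs other than replicate 3 (1.82 to 2.94) and all 37 C pairs (1.48 to 3.09). The fitted difference was -0.39 ± 0.93 (SE, adjusted p = 1) from 30 C, or -0.94 ± 0.43 (adjusted p = 1) without replicate 3, and -1.03 ± 0.94 (adjusted p = 0.987) from 37 C. RPS14B, at 2.04, lay within the range of both temperatures (1.65 to 3.27 and 0.62 to 2.92). GLC7 did so too, at 1.08 against 0.43 to 1.32 and 0.63 to 2.29.

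**Figure D5:**
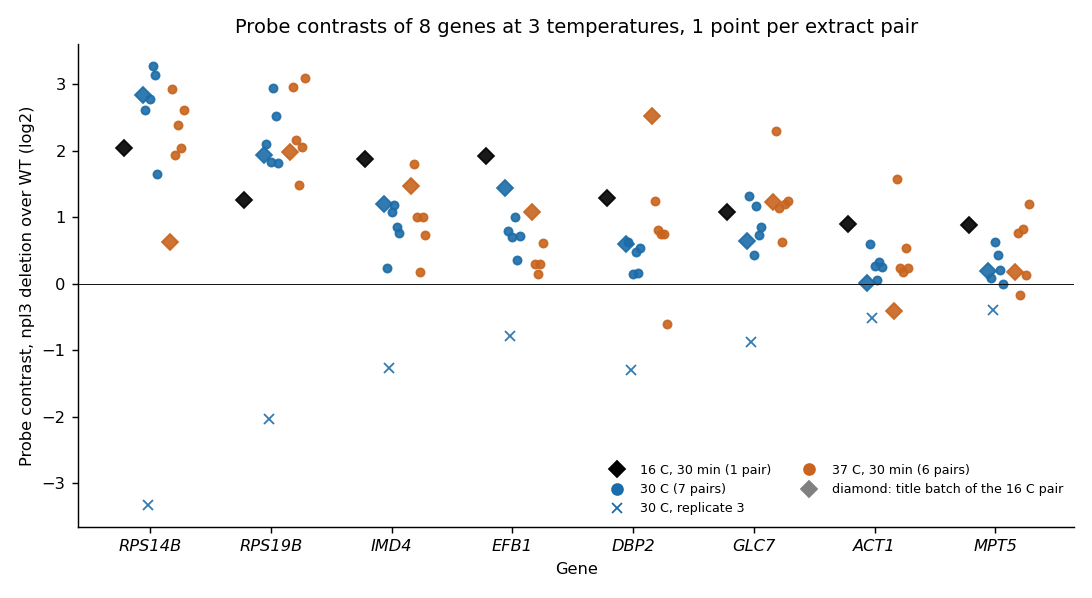
Probe contrast (log2) of 8 genes in each extract pair of the npl3 deletion over wild type, at 16 C (black), 30 C (blue) and after 30 min at 37 C (orange); diamonds mark the title batch of the 16 C pair and crosses the 30 C pair labelled replicate 3. The 16 C values of IMD4 (1.87) and EFB1 (1.91) lie above all other pairs drawn and that of RPS19B (1.254) below all but replicate 3 at 30 C. Replicate 6 at 37 C has no value for EFB1.

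The largest differences by the moderated statistic, none of them called, began with RPS26A in both comparisons (2.02 from 30 C and 1.83 from 37 C), which rests on the same single spot. After EFB1, IMD4, MPT5 and ACT1 from 30 C, the lowest were YOP1 (-0.47), CNB1 (-0.37), IWR1 (-0.33), IAI11 (-0.40) and SFT1 (-0.49). Without replicate 3 these were -0.47, -0.41, -0.40, -0.44 and -0.80 in the same order. YOP1 and IAI11 had 3 spots behind 1 probe on the Cy5 array. From 37 C the highest after EFB1 were ERD2, a receptor that returns proteins to the endoplasmic reticulum (0.82), RPL2A (0.56) and IMD4. The lowest were RPL31A (-1.41), RPL17A (-1.42), YIP3 (-1.43), RPS10B (-1.14) and RPL42B (-0.87). On the Cy5 array the third probe of YIP3 kept 2 spots and that of RPL31A 3. Of the 230 genes, 98 encode ribosomal proteins, and so do 4 of these 5. Their contrasts at 16 C were 0.44 for RPL31A, 0.67 for RPL17A, 0.59 for RPS10B and 0.20 for RPL42B.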

How the data were processed

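The authors deposited 1 value per spot and array as a log ratio. No source used here states its base, centring or direction, nor how spots were scanned, filtered or normalized. The deposited values were taken as log2 from their range, and as channel 1 (the deletion strain on both 16 C arrays) over channel 2, since NPL3 is below 0 on both. Scanner intensities were not used, so signal over background is unknown. Spots of a probe and then both arrays of an extract pair were averaged, with no further normalization. limma 3.58.1 in R 4.3.3 was fitted to 37 extract pairs with 1 coefficient per strain and condition (17 coefficients, 20 residual degrees of freedom), with Benjamini-Hochberg adjustment over all features and a threshold of 0.05. Probes needed a value in 50% of pairs. The fit was tested on simulated data. Fold counts needed 1.5-fold on both arrays and, for probes and contrasts but not gene means, 4 of 6 spots on each. Of the value columns, 0 matched no sample. The number of arrays limits the precision, and p-values measure the spread between deposited extract pairs.

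The arrays, gene lists and tests were chosen with earlier results of these data known. Genes named were NPL3, GBP2, HRB1 and NAM7, called genes, the 12 highest and 8 lowest contrasts and 10 highest and 10 lowest named probes with enough spots and the same sign on both arrays, all textbook intron genes, the members past the fold or the extremes of each other list, and the 5 highest and 5 lowest temperature differences. Probes were named from the platform annotation and RefSeq tables.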

Additional observations from a re-analysis of the deposited data

Results flagged for a closer look

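Among 18 sets of values over the npl3 pairs at 30 C or 37 C that are set beside 16 C, 7 held a value far from the others, judged by its gap to the nearest value over the range of the set. By chance about 1 set in 20 would. Of these, 6 came from the library labelled replicate 3 at 30 C. It read 1.47 at the NPL3 probe, where the other 6 pairs read -2.19 to -1.68. Its contrast was -3.32 for RPS14B, -1.27 for IMD4, -2.03 for RPS19B, -0.88 for GLC7 and -1.29 for DBP2, where the other 6 pairs were all above 0. The reversal was not limited to these genes. Over 149 genes its median contrast was -0.43, and its contrasts correlated with those at 16 C with r = -0.67. The seventh was the contrast of GLC7 in replicate 2 at 37 C, 2.29 against 0.63 to 1.24 in the other 5 pairs. The 16 C group has 1 pair and could not be checked in this way.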

How the results depend on the processing

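Leaving out the 30 C pair labelled replicate 3 raised the calls at 16 C to 4 probes, 4 contrasts (EFB1, IMD4, RPS14B and RPS26A) and 1 gene mean, with the SE of the RPS14B contrast at 0.49 in place of 1.21. The Cy5 array alone gave 1 called probe, the Cy3 array alone 0 contrasts, and npl3 over wild type pairs alone 0 contrasts. Leaving out replicate 3 raised contrasts above every 30 C and 37 C pair from 2 to 4 and those below from 1 to 15. Requiring 4 spots behind each probe left 0 called contrasts, and 2 without replicate 3 as well. The minimum of 4 spots in the fits, with or without replicate 3, the minimum of 3 spots and the counts against every pair were chosen after seeing the data. Probes past the fold, higher, were 36 on the Cy5 array, 49 on the Cy3 array, 4 at a fold of 2 and 76 at the lowest fold tried. Lower probes were 12, 11, 1 and 40 in that order. Higher contrasts were 54 on the Cy3 array, 4 at a fold of 2 and 49 at the lowest fold. Lower contrasts were 1 on the Cy5 array, 2 on the Cy3 array and 1 at the lowest fold. The median contrast was 0.32 on the Cy5 array, 0.30 on the Cy3 array and 0.26 with 4 spots, against 0.28. For the fold counts, a rise on 1 array or at a lower fold and a fall at a higher fold follow from their construction. The shift of the median contrast was not tested. Contrasts of 9 named genes, none called, changed sign in 1 setting each: RUB1 (0.0883) and ASC1 (-0.0790) with medians of spots, RPL30 (-0.15), IAI11 (0.0467) and YIP3 (-0.13) on the Cy5 array, and COF1 (0.0048), UBC12 (-0.17), CNB1 (0.15) and IWR1 (0.12) on the Cy3 array. Among all 448 values of named genes in the alternative settings, those 9 included, 433 kept their direction and side of the threshold. Direction was fixed in advance in many of them. The value at 16 C comes from 1 extract pair, so leaving out other pairs or a robust error could not change it. Centring each array cancels in a contrast, and the filter on missing values removed no feature from the fits. Among all 95 summaries in the alternative settings, 68 were counted as unchanged. For a summary that label allowed some change in size. Dropping the filter on missing values could change neither the fits nor the median contrast. Higher contrasts on the Cy5 array, for example, were 33 against 22 and were counted as unchanged. Title batch as a fixed block (the replicate block) left the 4 counts of temperature differences at 0. The title batch alone has 1 pair per temperature and gives no count of calls.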

Other observations

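Genes whose intron is known to house a small nucleolar RNA were looked at after IMD4 and EFB1 had been seen to lie high, so the list was chosen with values known. The 7 hosts measured with 3 ordered probes ranged widely in probe contrast at 16 C. EFB1 read 1.91 and IMD4 1.87, RPS22B 0.66, NOG2 0.56, RPL7B 0.27 and RPL7A 0.24, and ASC1 0.02. In the 30 C pair of the same title batch they read 1.44, 1.20, 0.93, 0.32, 0.48, -0.24 and -0.34 in the same order, and in the 37 C pair of that batch 1.08, 1.47, 1.43, 0.85, 0.88, 0.79 and 0.49.

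Probes to transfer RNA genes leaned slightly low. Of 22 with at least 4 spots on both arrays, 14 were below 0 on both arrays and 1 above 0 on both, against 461 and 412 of all 1356 probes. Their median was -0.10 (range -0.35 to 0.04), and it was -0.11 in the 30 C pair and 0.05 in the 37 C pair of the same title batch.

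A probe with no gene name in the tables used here read 1.61 and 1.95 at 16 C, with 1.21 and 1.26 in the 30 C and 37 C pairs of the same title batch. A second unnamed probe read 0.70 and 0.90.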
